A study of Schmidtea mediterranea with 64 samples.

Results

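Whole planarians (*Schmidtea mediterranea*) were compared after 9 and after 6 days of *set1* RNA interference (RNAi), to see which transcripts went on changing as the knockdown was prolonged. The members are the transcript IDs whose mean over the 16 libraries of the *set1* whole-worm table was at least 1 RPKM, and they were 19655 of the 27275 IDs listed. RPKM counts reads for each kilobase of a transcript and each mega of reads in the library. The ID just inside this limit had a mean of 1.000000 RPKM and the one just outside had 0.999875 RPKM. The filter used the mean level and no measured change, although members, lists and tests were chosen with earlier results of these data known.

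The groups were *set1*(RNAi) at day 9, *set1*(RNAi) at day 6, *unc22*(RNAi) at day 9 and *unc22*(RNAi) at day 6, with 4 whole-worm libraries each, out of 64 libraries in the series. Adult worms ate bacteria that made double-stranded RNA, mixed with calf liver paste. *unc22* served as the control that targets no planarian gene, and polyA RNA was sequenced. The *set1* experiment also had 4 libraries per group of X1 cells, a stem cell fraction sorted by Hoechst staining and flow cytometry. The labels give no strain, size or number of worms per library, and nothing says that the 4 libraries of a group came from separate worms or cultures, so p-values measure the spread between these libraries, which may be technical.

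Set1 proteins are the catalytic subunits of COMPASS complexes, which methylate histone H3 at lysine 4, a mark of the promoters of active genes. Planarians replace the cells of every organ throughout life from neoblasts, their dividing stem cells, and the daughters of neoblasts pass through progenitor stages before they join a tissue. The X1 gate holds neoblasts that are replicating or have replicated their DNA. RNAi lowers the messenger RNA of its target, and the effect on the animal builds up over days as protein and cells turn over. The files do not pair IDs with gene names, so the level of *set1* itself was not checked, no marker list was scored, and transcripts are described by their level, their length and their distribution between X1 cells and the whole worm.

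The 16 whole-worm libraries held 16.42 to 20.78 M (mega) reads, and those of *set1*(RNAi) held 17.90 to 19.66 M at day 9 and 17.58 to 20.78 M at day 6. The mean number of IDs at 1 RPKM or more was 19708.5 ± 99.95 at day 9 and 19655.0 ± 45.35 at day 6 in *set1*(RNAi) (SD, n = 4 each, exact permutation test, two-sided p = 0.343 and 0.685 after Benjamini-Hochberg adjustment over 3 summaries). Read totals and the share of RPKM in the 100 most abundant transcripts also missed the threshold (adjusted exact p = 0.857 and 0.685). No 2 replicates of a *set1*(RNAi) group agreed within sampling noise, since the squared difference of their reads was 2.22 to 7.21 times that of pure counting. Replicate 1 of day 9 stood apart from the other 3 libraries of its group. Its pairs with them had the highest of these ratios, 6.70 to 7.21, and its weight in limma's arrayWeights was 0.42, against 0.84 to 1.41 for the other 15 libraries. The total counts of calls and of the interaction, the 2-fold counts and the day-change counts of the X1 classes are given with and without it. All other counts include it.

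On the first principal component of the 8 *set1*(RNAi) libraries, which held 33.9% of the variance, the day 9 libraries scored 17.0, 16.4, 13.5 and 12.8 and the day 6 libraries scored -13.4, -19.4, -13.4 and -13.6. The days did not overlap, and the exact permutation p was 0.0286, the smallest that 4 against 4 libraries allow (two-sided). The second component (16%) set day 9 replicate 1 apart, at 22.9, with scores of -12.0 to 8.20 for the other 7.

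Between day 9 and day 6 of *set1*(RNAi), 3866 of 19655 transcripts (19.7%) were called by limma at an adjusted p under 0.05. There were 1741 higher at day 9 (8.86%) and 2125 lower at day 9 (10.8%). Without day 9 replicate 1 the calls were 3811, with 1566 higher and 2245 lower. Setting the libraries to a common median turned the split, with 2026 higher and 1878 lower, so which direction had more calls depends on the scaling. Most changes were small. The median size of a called change was 0.25 on the log2 scale for the higher transcripts and 0.27 for the lower ones, and the 90th percentiles were 0.52 and 0.53. Requiring a 1.5-fold change left 115 higher (0.585% of those tested) and 160 lower (0.814%), and requiring a 2-fold change left 40 (0.204%), of which 13 were higher (0.0661%) and 27 lower (0.137%). Without day 9 replicate 1 the 2-fold calls were 14 higher and 30 lower.

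All 4 day 9 libraries lay above all 4 day 6 libraries for 1920 transcripts (9.77%), and below them for 2156 (11%). In *unc22*(RNAi) the same separation held for 509 (2.59%) and 489 (2.49%). Over the same 3 days the control worms gave 6 calls (0.0305%), 2 higher (0.0102%) and 4 lower (0.0204%) at day 9, with 1531 transcripts at an unadjusted p under 0.05 and 24 calls by voom, limma's test for reads, on the recovered reads. The control therefore had few changes that stood out from its replicate spread, although single uncalled transcripts reached a change of 2.12 on the log2 scale, as the plot of change against level shows.

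**Figure D1:**
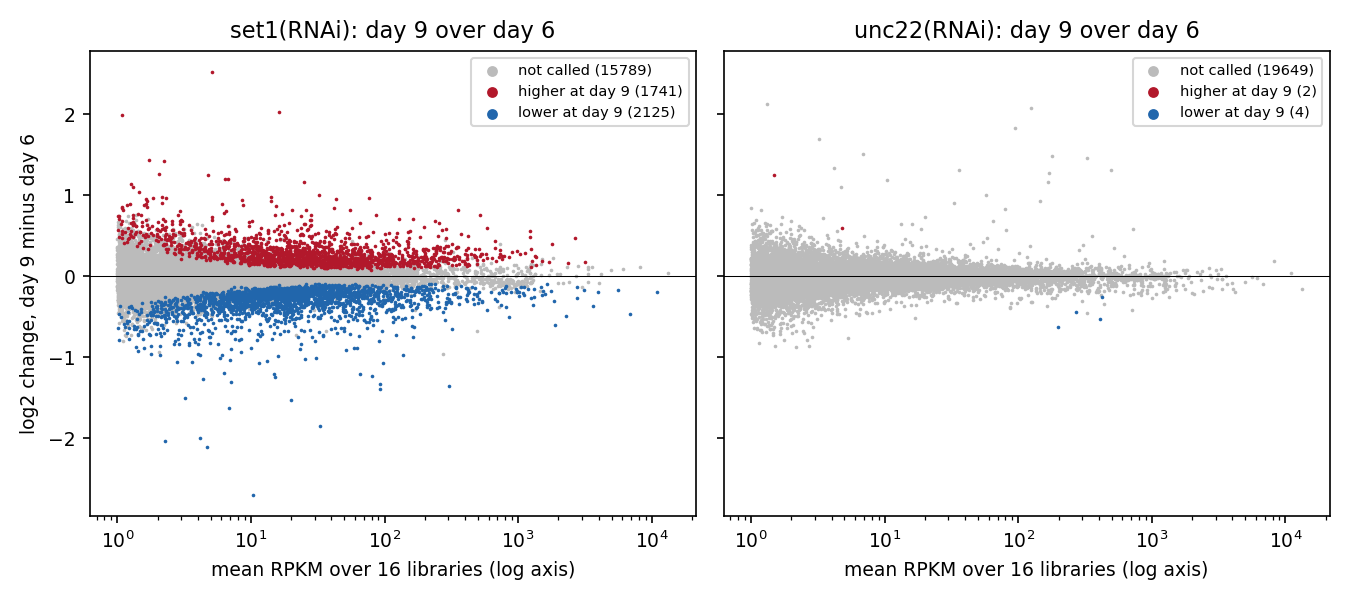
Change between day 9 and day 6 (vertical axis, log2 of RPKM + 0.5, positive when higher at day 9) against mean RPKM over the 16 libraries (horizontal, log axis) for 19655 transcripts, in *set1*(RNAi) on the left and *unc22*(RNAi) on the right. Red and blue points passed an adjusted p of 0.05. The left panel holds 1741 red and 2125 blue points, most of them close to the line at 0, and the right panel holds 2 and 4.

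The difference between the day change in *set1*(RNAi) and that in *unc22*(RNAi) was tested directly, as an interaction in the same fit. It was called for 1648 transcripts (8.38%). In 617 (3.14%) *set1*(RNAi) moved up relative to the control and in 1031 (5.25%) it moved down. At 2-fold or more there were 53 (0.27%), with 19 up (0.0967%) and 34 down (0.173%). Of the 1741 transcripts called higher at day 9, 558 (32.1%) had a called interaction in that direction, and of the 2125 lower ones 987 (46.4%) did. Both tests use the same *set1*(RNAi) libraries. The other calls were not shown to differ from the day change of the control. In control worms 65.3% of the higher list had a higher mean at day 9, against 48.7% of the lower list and 49.9% of all tested. Without day 9 replicate 1 of *set1*(RNAi) the interaction gave 1876 calls, 618 up and 1258 down.

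The share called went up with the level of a transcript. Of the 7641 transcripts with a mean of 1 to 5 RPKM, 2.87% were higher and 3.83% lower at day 9. Of the 6631 at 5 to 20 RPKM the shares were 8.14% and 12.3%, and of the 4204 at 20 to 100 RPKM they were 16.7% and 18.4%. Of the 1179 at 100 RPKM or more, 23.6% were higher and 20.6% lower. The depth behind a value goes the same way, since abundant transcripts have more reads and a smaller relative error. Transcript length mattered less. The called share was lowest for the 2940 transcripts under 500 bases, with 6.12% higher and 5.14% lower, and highest for the 6833 of 1000 to 2000 bases, with 10.3% higher and 13.9% lower. The median level of these 2 classes was 2.85 and 10.2 RPKM, so length was not separated from level. Yet short transcripts made up most of the 2-fold calls. They were 8 of the 13 higher (61.5%) and 14 of the 27 lower (51.9%), against 15% of all transcripts tested.

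The IDs were next sorted by where they are found in control worms. The ratio of the mean RPKM in X1 cells to that in whole worms, both over the 8 *unc22*(RNAi) libraries and with 0.5 added to each mean, uses no *set1*(RNAi) library. The X1 and whole-worm tables may have been normalised separately, so the ratio orders transcripts and its zero point is approximate. Transcripts with at least 2 times more RPKM in X1 cells (log2 ratio of 1 or more) are called X1-high here, and those at -1 or less X1-low. There were 3658 X1-high transcripts, 4624 between the limits and 7256 X1-low ones, while 4117 were not listed in the X1 table.

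Most X1-high transcripts that were called were lower at day 9, and most X1-low ones that were called were higher, while most members of either class were not called. Of the X1-high transcripts, 756 (20.7%) were lower at day 9 and 131 (3.58%) were higher, and their median change was -0.08 on the log2 scale. Of the X1-low transcripts, 608 (8.38%) were lower and 1032 (14.2%) were higher, with a median of 0.03. The transcripts between the limits stood between these, with 603 lower (13.0%), 304 higher (6.57%) and a median of -0.02. Those not listed in the X1 table had 158 lower (3.84%) and 274 higher (6.66%), and their median was 0.03. In *unc22*(RNAi) the medians of the same classes were 0.0014 for X1-high, 0.0090 between the limits, -0.0003 for X1-low and -0.02 for the unlisted ones. By the interaction, 351 X1-high transcripts (9.6%) were called down and 48 (1.31%) up, against 5.25% and 3.14% of all tested. Between the limits 285 (6.16%) were down and 78 (1.69%) up. Of the X1-low ones 318 (4.38%) were down and 393 (5.42%) up, and of the unlisted ones 77 (1.87%) and 98 (2.38%). The X1-low surplus of rises was thus smaller by this test, whereas the X1-high class kept its surplus of falls.

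Leaving out day 9 replicate 1 raised the X1-high transcripts called lower to 913 (25.0%) with 91 higher (2.49%), and left 573 X1-low transcripts lower (7.90%) and 982 higher (13.5%). Between the limits there were then 619 lower and 220 higher, and among the unlisted ones 140 lower and 273 higher. Over the 19 other fits the median of the X1-high class stayed below 0, between -0.06 and -0.10, and that of the X1-low class stayed above 0, between 0.02 and 0.04. In RNA from whole animals, fewer cells of a type and less RNA per cell cannot be told apart, so a fall of X1-high transcripts does not separate these.

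Finer steps of the ratio, set after the values were seen, gave the same order. Below a log2 ratio of -5, 27.9% of 753 transcripts were higher at day 9 and 11.4% were lower. The share that was higher dropped with each step to 2.42% of the 1321 transcripts at ratios of 2 to 3, where 22.8% were lower. Above that the order broke, with 4.54% higher and 19.9% lower of 463 transcripts at 3 to 4, and 6.67% and 14.4% of 90 at 4 or more. X1-low transcripts below -4 also had a higher share of falls than those at -3 to -1. Because a constant was added to both means, only transcripts abundant in control whole worms could reach the lowest ratios. The share called rose with level in both directions, so the called shares of these steps were not separated from level. The finer steps were not tested at matched level. Across the 15538 transcripts listed in both tables, the change in *set1*(RNAi) and the ratio had a Pearson r of -0.20 and a Spearman rho of -0.24, a description over transcripts that share the same libraries.

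**Figure D2:**
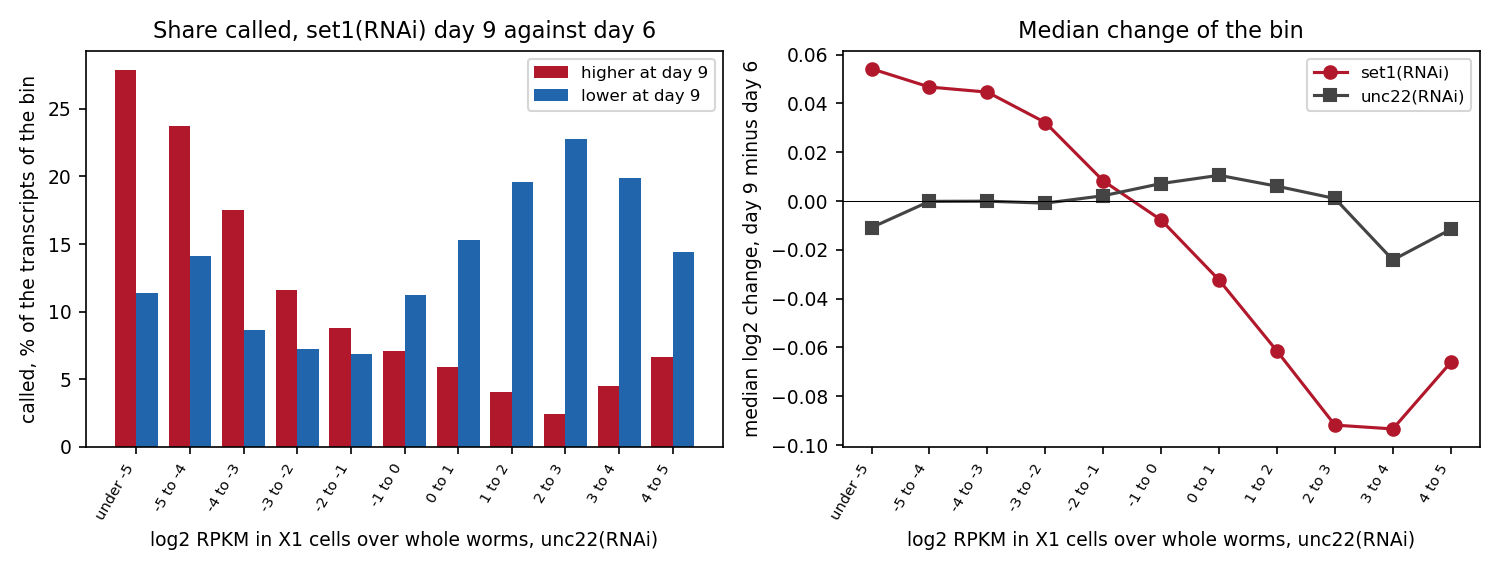
Transcripts binned by the log2 ratio of RPKM in X1 cells over whole worms in *unc22*(RNAi) (horizontal axis). The last bin, labelled 4 to 5, holds all ratios of 4 or more. On the left, bars give the percent of each bin called higher (red) or lower (blue) at day 9 against day 6 of *set1*(RNAi), from 27.9% and 11.4% below -5 to 2.42% and 22.8% at 2 to 3. On the right, points give the median log2 change of each bin, which crosses 0 near the middle of the axis in *set1*(RNAi) and stays between -0.03 and 0.02 in *unc22*(RNAi).

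The contrast between the classes was widest among abundant transcripts, where the test has most reads to work with. Of the 267 X1-high transcripts at 100 RPKM or more, 106 (39.7%) were lower at day 9 and 12 (4.49%) were higher. Of the 662 X1-low transcripts at that level, 67 (10.1%) were lower and 225 (34.0%) were higher. At 1 to 5 RPKM the X1-low class had 69 lower (3.86%) and 53 higher (2.96%) of 1788, so its surplus of rises was not seen at low levels, whereas the X1-high class kept its surplus of falls there, with 90 lower (8.42%) and 26 higher (2.43%) of 1069. By the interaction, X1-low transcripts at 100 RPKM or more had 39 down (5.89%) and 130 up (19.6%). At 20 to 100 RPKM they had 158 down (7.78%) and 169 up (8.33%). At 5 to 20 RPKM they had 97 down (3.49%) and 68 up (2.45%).

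The same pattern was visible library by library in the share of summed RPKM that a class took, a quantity set mostly by its abundant members. X1-high transcripts took 20.42%, 19.87%, 19.60% and 19.73% in day 9 replicates 1 to 4 of *set1*(RNAi), against 21.46%, 21.35%, 21.39% and 21.03% at day 6. In *unc22*(RNAi) they took 22.37%, 22.60%, 22.38% and 22.28% at day 9, against 22.46%, 22.03%, 22.65% and 21.92% at day 6. Every day 9 library of *set1*(RNAi) was thus below every day 6 library, these were below every control library, and the control days overlapped.

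X1-low transcripts took 58.00%, 57.87%, 58.02% and 57.87% in the *set1*(RNAi) libraries of day 9, against 56.25%, 56.08%, 55.94% and 56.72% at day 6. The control range was 54.35% to 54.67% at day 9, against 54.55% to 55.00% at day 6. The order was the reverse of that for the X1-high class, again with no overlap between the *set1*(RNAi) days or between either of them and the controls. Counted instead by the median transcript of the X1-high class, relative to the mean of the 8 control libraries, the days did overlap. Day 9 replicates 1 to 4 stood at -0.08, -0.20, -0.22 and -0.20 on the log2 scale, against -0.08, -0.10, -0.11 and -0.11 at day 6, so that day 9 replicate 1 was at the level of day 6 by this measure.

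**Figure D3:**
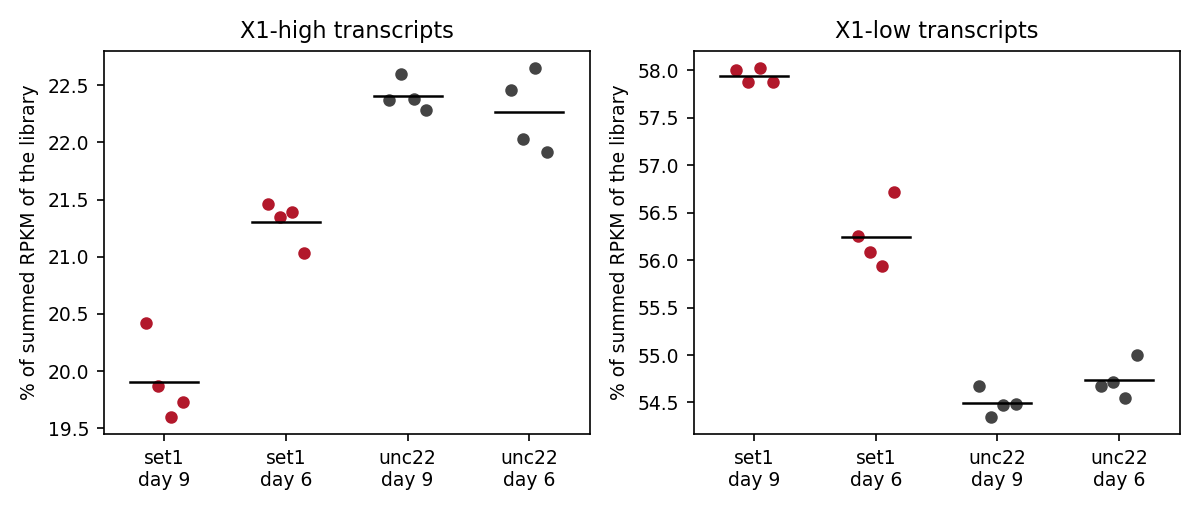
Percent of the summed RPKM of each whole-worm library (vertical axis, not starting at 0) in X1-high (left) and X1-low (right) transcripts. Each point is a library, bars are group means, and *set1*(RNAi) is red. X1-high transcripts lie at 19.60% to 20.42% in *set1*(RNAi) at day 9, at 21.03% to 21.46% at day 6 and at 21.92% to 22.65% in the controls, and X1-low transcripts run in the opposite order.

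The higher and the lower lists also differed from the whole table in their makeup. Of the 2125 lower transcripts 35.6% were X1-high, and of the 1741 higher ones 7.52% were, against 18.6% of all tested. X1-low transcripts were 28.6% of the lower list and 59.3% of the higher list, against 36.9% of all. The lower list thus still held 608 X1-low transcripts, whose median change of -0.28 was like that of the 756 X1-high ones, -0.27. Median levels were 18.7 RPKM in the lower list and 25.0 RPKM in the higher list, against 8.10 RPKM over all tested.

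The comparisons with *unc22*(RNAi) of the same day use the same *set1*(RNAi) libraries, so their values are given only side by side. The median log2 difference from the control of the 2125 lower transcripts was -0.41 at day 9 and -0.14 at day 6, and that of the 1741 higher transcripts was 0.31 at day 9 and 0.09 at day 6. Over all transcripts tested the medians were 0.0061 and -0.0010. The medians of the day change within *unc22*(RNAi), which shares no library with the comparison, were -0.0011 for the lower list and 0.03 for the higher list. The X1-high class as a whole had a median of -0.17 against the control at day 9 and of -0.10 at day 6, and the X1-low class 0.07 and 0.04.

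Sorted X1 cells of the same RNAi groups and days were sequenced as separate libraries, with 12.62 to 18.28 M reads. In these cells 2606 of 13503 transcripts (19.3%) were called between day 9 and day 6 of *set1*(RNAi), with 1062 higher (7.86%) and 1544 lower (11.4%). That split turned when the libraries were set to a common median, with 1418 higher and 1001 lower, and after quantile normalisation, with 1923 higher and 1602 lower. In *unc22*(RNAi) X1 cells 20 were called (0.148%), all of them lower at day 9, with 1547 at an unadjusted p under 0.05. In X1 cells the difference between the day change in *set1*(RNAi) and that in *unc22*(RNAi) was called for 783 transcripts (5.8%). In 312 (2.31%) *set1*(RNAi) moved up relative to the control and in 471 (3.49%) it moved down.

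Of the whole-worm calls, 1741 of the lower and 1146 of the higher transcripts were also tested in X1 cells. Among the lower ones, 570 (32.7%) were lower and 40 (2.30%) higher in X1 cells too. Among the higher ones, 200 (17.5%) were higher and 46 (4.01%) lower. Over the 11973 transcripts tested in both, 955 (7.98%) were higher and 1450 (12.1%) lower in X1 cells. Taken as shares of the X1 calls among these transcripts, the 570 were 39.3% of those lower and the 200 were 20.9% of those higher. By the difference from the day change of control X1 cells, 237 of the 1741 were called down and 10 up. Of the 1146, 77 were called up and 11 down, and of the 11973, 264 were up and 455 down. In *unc22*(RNAi) X1 cells the median day change was -0.01 for the lower list, -0.05 for the higher list and -0.02 over all. Median changes in *set1*(RNAi) X1 cells were -0.23 for the lower list and 0.12 for the higher list, against -0.04 over all. With median scaling of the X1 libraries they were -0.16 and 0.20, against 0.03, so both lists kept their side of 0. Across the 11973 transcripts, the whole-worm and X1 changes in *set1*(RNAi) had a Pearson r of 0.33 and a Spearman rho of 0.34. Between *set1*(RNAi) and *unc22*(RNAi) whole worms, over 19655 transcripts, r was 0.04 and rho 0.07.

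Within each class, transcripts that were lower in whole worms at day 9 were set beside the class as a whole in X1 cells. Of the 756 X1-high transcripts that fell, 256 (33.9%) were called lower in X1 cells and 10 (1.32%) higher, with a median change there of -0.18, against 18.2% lower, 5.71% higher and a median of -0.07 over all 3658. In control X1 cells the median day change was also -0.06 over all 3658, and it was -0.01 for the 756. Of the 603 between the limits, 594 were tested in X1 cells, where 38.7% were lower and 2.02% higher with a median of -0.29, against 12.3%, 9.51% and -0.02 over the 4207 of that class tested. Of the 608 X1-low transcripts that fell, 391 were tested, where 21.5% were lower and 4.60% higher, against 6.48% and 8.42% of the 4108 tested. By the difference from the day change of control X1 cells, 35 of these 391 were called down and 7 up. Over the 4108 it was 80 down and 97 up. In control X1 cells 6 of the 391 were called lower at day 9, and 18 of the 4108. Of the 131 X1-high transcripts that rose in whole worms, 25.2% were higher and 7.63% lower in X1 cells. The 297 between the limits that rose and were tested in X1 cells had 25.6% higher and 3.37% lower there. The 718 X1-low transcripts that rose in whole worms and were tested in X1 cells had 12.7% higher and 3.62% lower there. The transcripts not called in X1 cells were not shown to have kept their level. X1 RPKM is relative to the RNA of X1 cells alone, whereas a whole-worm value also moves with the share of the worm's RNA that comes from these cells.

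The 40 transcripts that changed at least 2-fold were unlike the bulk of the calls. Of the 27 lower ones 20 were X1-low (74.1%), 1 was X1-high and 6 were not listed in the X1 table. Of the 13 higher ones 3 were X1-low, 2 X1-high, 1 between the limits and 7 not listed (53.8%, against 20.9% of all transcripts tested). The lower ones had means of 0.302 to 132 RPKM at day 9 and of 2.22 to 338 RPKM at day 6, and 5 of them were under 1 RPKM at day 9. The higher ones had 1.91 to 45.7 RPKM at day 9 and 0.444 to 19.0 RPKM at day 6. Of the 27 lower ones 15 were tested in X1 cells, where 8 (53.3%) were lower at day 9 of *set1*(RNAi) and 0 higher. Their median day change in X1 cells was -0.74 in *set1*(RNAi) and -1.12 in *unc22*(RNAi), against -0.04 and -0.02 over all tested in both. In control X1 cells 4 of them were called lower. The difference of the X1 day changes was called for 1 up and 1 down. Of the 13 higher ones, 4 were tested in X1 cells.

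The control change between days was not part of the rule for these transcripts. Control libraries did enter the filter on mean RPKM and the spread behind the calls, so the control values below are not independent of the choice. In control worms 20 of the 27 had a higher mean at day 9 than at day 6 (74.1%, against 49.9% of all transcripts tested). In 10 of the 27 the control change was 0.5 or more on the log2 scale, and in none was it -0.5 or less. None of these control changes was called, and *unc22*(RNAi) day 9 replicate 1 was the highest of its group in 23 of the 27. Without that library 17 of the 27 had the higher control mean at day 9, and 7 were at 0.5 or more. Apart from the 20, these counts were not made over all transcripts tested. They therefore do not show that the 27 were unlike the rest. Their median control change was 0.22, with a range of -0.47 to 1.70, and it was 0.17 without that library. Relative to the control of the same day their median was -1.99 at day 9 and -0.01 at day 6, values that share the *set1*(RNAi) libraries. At day 6, 19 of the 27 were within 0.5 of the control, 5 were lower by more and 3 were higher by more. Of the 13 higher transcripts, 10 also had a higher mean in the control at day 9 (76.9%), 1 of them by 0.5 or more, and 1 of the 13 control changes was called. Their median was 1.203 against the control at day 9 and 0.16 at day 6.

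**Figure D4:**
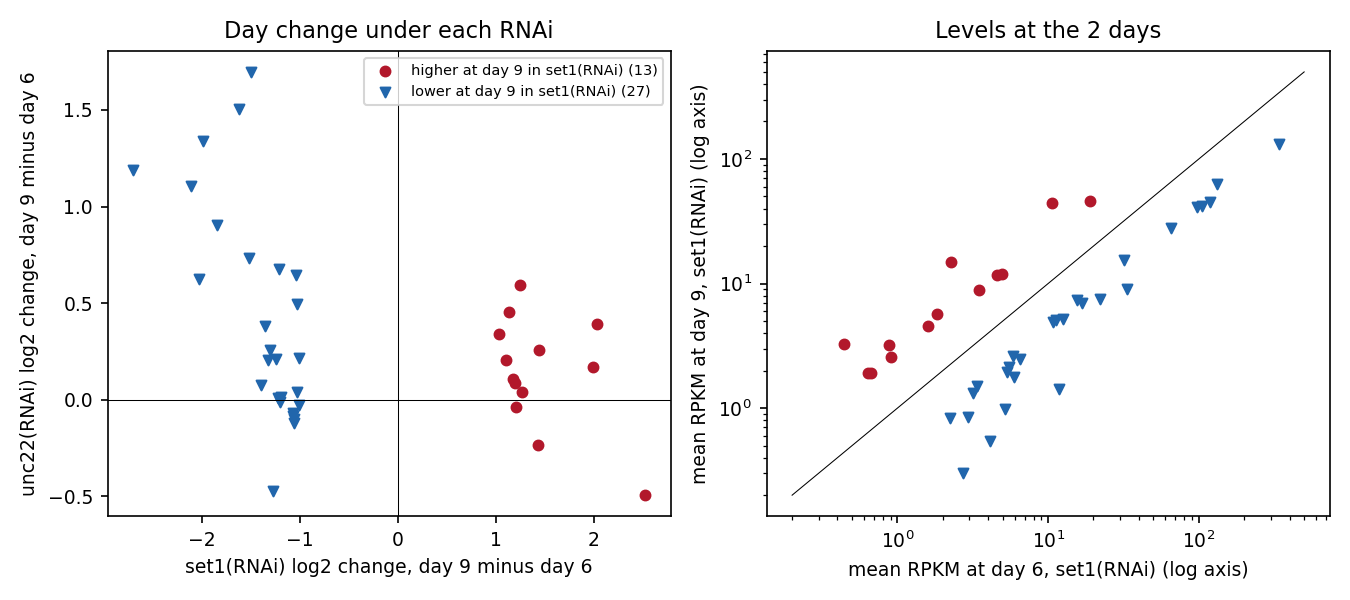
The 40 transcripts called with a change of at least 2-fold. On the left, the log2 change between day 9 and day 6 in *unc22*(RNAi) (vertical axis) is set against that in *set1*(RNAi) (horizontal), and 20 of the 27 lower transcripts had a higher mean at day 9 in the control. On the right, mean RPKM of *set1*(RNAi) at day 9 (vertical, log axis) is set against day 6 (horizontal, log axis), with a line at equal levels.

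The single transcripts shown here were picked by a rule, the largest rise and fall among calls whose days did not overlap, and then the largest rise and fall among those with a mean of at least 10 RPKM. Their choice rests on the change between the days of *set1*(RNAi), so those values describe the extremes of the table.

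SMED30035537, of 489 bases, rose most. It had 17.6, 13.9, 14.9 and 13.2 RPKM in *set1*(RNAi) at day 9, against 2.78, 1.16, 2.21 and 2.91 RPKM at day 6. The lowest day 9 library was more than 4 times the highest day 6 library, on 122 to 148 reads at day 9 and 10 to 28 reads at day 6. The log2 change was 2.52 ± 0.19 (SE, limma adjusted p = 1.38e-07). In *unc22*(RNAi) it averaged 1.23 ± 0.35 RPKM at day 9 and 1.90 ± 0.25 RPKM at day 6 (SD, n = 4 each), and at day 6 *set1*(RNAi) was within 0.16 log2 of that control. The rise was thus seen only at day 9 of *set1*(RNAi) among the 4 whole-worm groups, and the transcript was not listed in the X1 table.

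SMED30002813, of 723 bases, fell most. It had 1.53, 0.910, 2.204 and 1.10 RPKM in *set1*(RNAi) at day 9, against 13.3, 14.7, 8.95 and 10.6 RPKM at day 6, a log2 change of -2.70 ± 0.26 (SE, limma adjusted p = 1.87e-06). The control went the other way. *unc22*(RNAi) libraries had 33.8, 21.2, 11.5 and 14.4 RPKM at day 9, against 8.41, 9.19, 6.60 and 7.54 RPKM at day 6, again with no overlap, although that change of 1.19 ± 0.26 was not called (SE, limma adjusted p = 0.159). Control day 9 replicate 1 was the highest of all 16 libraries. In X1 cells the transcript averaged under 2 RPKM in each group, and in control worms its X1 to whole-worm log2 ratio was -3.09.

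SMED30016968, of 396 bases, was the largest rise at 10 RPKM or more. It had 44.5, 42.8, 46.9 and 41.6 RPKM at day 9 of *set1*(RNAi), against 11.8, 7.90, 10.4 and 12.1 RPKM at day 6. The log2 change was 2.03 ± 0.14 (SE, limma adjusted p = 4.94e-08). Here the day 6 level already stood above the control, which averaged 5.72 ± 0.53 RPKM at day 9 and 4.32 ± 1.11 RPKM at day 6 (SD, n = 4 each). The difference from the control was 2.84 ± 0.14 log2 at day 9 and 1.21 ± 0.14 at day 6 (SE). So this transcript was already above the control at day 6, whereas SMED30035537 was within 0.16 log2 of it. No earlier day of *set1*(RNAi) was sampled.

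SMED30028779, of 462 bases, was the largest fall at 10 RPKM or more. It had 8.41, 7.89, 12.1 and 7.54 RPKM at day 9 of *set1*(RNAi), against 30.8, 37.9, 28.2 and 35.9 RPKM at day 6, a log2 change of -1.84 ± 0.18 (SE, limma adjusted p = 2.59e-06). As with the other fall, the control was higher at day 9, with 91.8, 54.5, 42.4 and 48.6 RPKM, against 33.6, 29.6, 26.8 and 30.7 RPKM at day 6, and control day 9 replicate 1 was again the highest library. At day 6 *set1*(RNAi) and the control differed by 0.13 ± 0.18 log2 (SE).

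In X1 cells SMED30028779 was lower at day 9 under both RNAi treatments. It averaged 1.90 ± 0.32 RPKM at day 9 and 7.25 ± 3.73 RPKM at day 6 of *set1*(RNAi), and 1.64 ± 1.48 RPKM at day 9 and 9.01 ± 3.24 RPKM at day 6 of *unc22*(RNAi) (SD, n = 4 each). The log2 change was -1.58 in *set1*(RNAi) (limma adjusted p = 0.0103) and -2.35 in *unc22*(RNAi) (limma adjusted p = 0.0262), and the difference of these changes was not called (0.77, limma adjusted p = 0.462). Its X1 values thus moved with the day in the control too, while its whole-worm control values were higher at day 9.

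**Figure D5:**
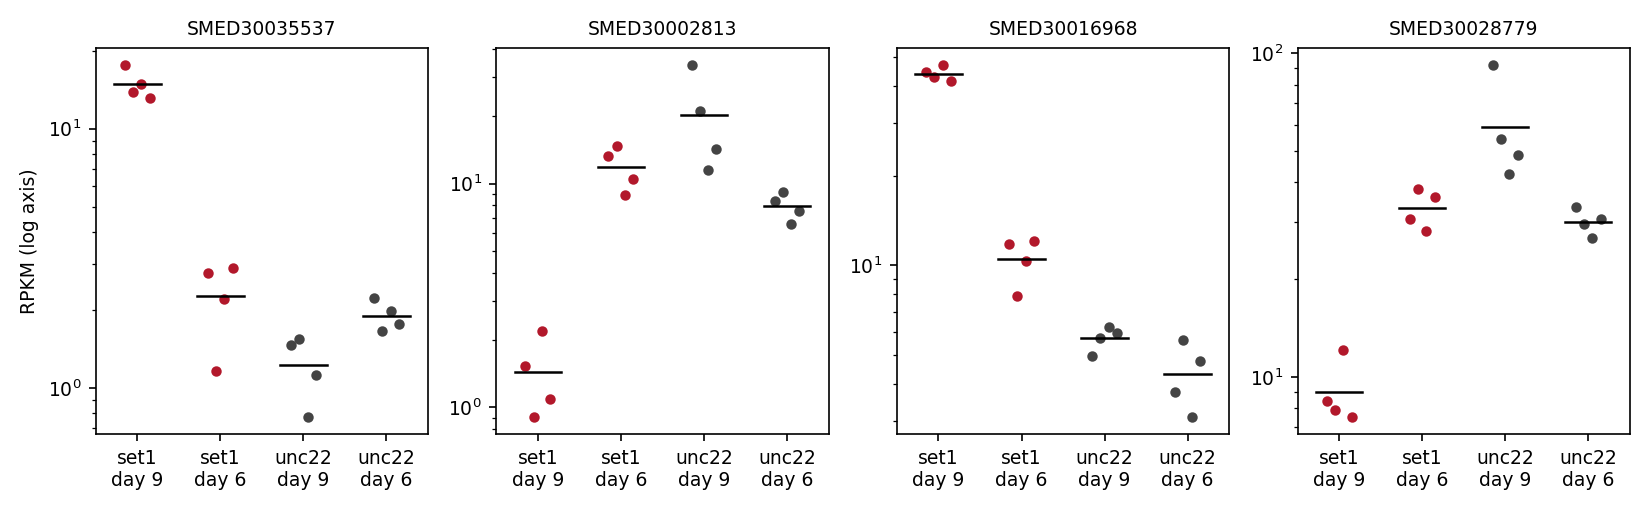
RPKM (vertical, log axes that differ between panels) of 4 transcripts in each whole-worm library, with the 4 groups along the horizontal axis and bars at group means. SMED30035537 and SMED30016968 are highest in *set1*(RNAi) at day 9, and SMED30002813 and SMED30028779 are lowest there, while both of these are highest in *unc22*(RNAi) at day 9.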

How the data were processed

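The RPKM values were deposited by the authors in 1 table per experiment and tissue, and the tables of *set1* whole worms and *set1* X1 cells were used. The submitters' processing notes name CASAVA 1.8.2, Bowtie and edgeR, and neither the transcript set nor the counting is stated there or in the labels. Values were whole multiples of a step per library and length. A length was solved for 27274 of 27275 whole-worm and 18845 of 18845 X1 IDs, and 100% of their values came out within 0.01 read of a whole number. These reads gave the depths and an alternative test, which called 4015 transcripts. In R 4.3.3, limma 3.58.1 (with a trend of variance on level) fitted a mean for each group of the 16 libraries to log2(RPKM + 0.5), two-sided, with Benjamini-Hochberg adjustment over all IDs tested. This scale understates the change of low transcripts. Reads shared by near-identical transcripts are uncertain. X1 columns show group but not sample, so they carry no replicate number. Fits were tested on simulated data. The members, lists and tests were chosen with earlier results of these data known. Named transcripts followed the rule given above. Python 3.11.15 with numpy 2.4.6, pandas 2.3.3 and scipy 1.17.1 was used.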

Additional observations from a re-analysis of the deposited data

Results flagged for a closer look

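The day change differed between *set1*(RNAi) and *unc22*(RNAi) for 1648 transcripts by the limma interaction. All 4 transcripts shown one by one were among them. The difference, *set1*(RNAi) minus *unc22*(RNAi), was 3.02 ± 0.27 (SE, limma adjusted p = 4.74e-06) for SMED30035537 and -3.89 ± 0.37 (5.98e-06) for SMED30002813. It was 1.64 ± 0.20 (SE, 7.09e-05) for SMED30016968 and -2.75 ± 0.26 (5.98e-06) for SMED30028779. For the 2 falls the control's own gain is part of the difference.

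A library lay far from the other 3 of its group in 5 of 52 groups of values examined, where chance would give about 1 in 20. Day 9 replicate 1 of *set1*(RNAi) gave 2 of these. The library size behind its RPKM values was 0.963 times its listed reads, against 0.9996 to 1.005 for the others, and its median X1-high transcript was -0.082 from the control mean, against -0.195, -0.217 and -0.201. Day 6 replicate 2 of *set1*(RNAi) scored -19.4 on the first component, against -13.4, -13.4 and -13.6. The median X1-low transcript of day 6 replicate 1 of *set1*(RNAi) was 0.023 from the control mean, against 0.042 to 0.046. The median of the transcripts not listed in the X1 table was -0.014 in *unc22*(RNAi) day 6 replicate 1, against 0.020 to 0.024.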

How the results depend on the processing

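The count of 3866 calls was 2974 to 4170 over 11 other settings and 3025 to 3811 when 1 library was left out, and an adjusted p under 0.01 gave 2161. Of the 3866, 2881 to 3853 were still called in the same direction under each setting (3354 of the 3354 tested at a mean of at least 5 RPKM), and 2 changed sign under quantile normalisation. All 4 single transcripts kept their direction and call. The interaction gave 681 at an adjusted p under 0.01 and 1260 to 1876 with 1 library left out. The 6 control calls became 10 with a pseudocount of 1, 14 with quantile normalisation, 24 with voom, 10 with the length trend removed, 10 with library weights, 10 with only the groups compared, 0 at an adjusted p under 0.01 and 12 with the replicate block, and 0 to 7 with 1 library left out. They were 0 without *unc22*(RNAi) day 6 replicate 2 or 3 or day 9 replicate 1 or 3, and 1 without day 6 replicate 4 (1531 transcripts were at an unadjusted p under 0.05 in the full fit). The 2606 X1 calls became 4562 with library weights, 1271 at an adjusted p under 0.01 and 1827 to 2450 with 1 library left out. The 2-fold calls, 13 higher and 27 lower, became 30 and 49 with a pseudocount of 0.1 and 33 and 55 with voom, and the 13 became 25 without a filter, 5 at a mean of at least 5 RPKM and 20 without day 6 replicate 1 or without day 9 replicate 4. X1-high transcripts called higher were 83 in place of 131 without day 6 replicate 2.

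Same-numbered libraries of day 9 and day 6 had correlations of their deviations from the group means of 0.151, -0.0668, 0.0325 and -0.034, so the numbers were not taken as pairs. With the replicate block there were 4170 calls, and 1884 for the interaction, and not every library correlated best with its own number. For the X1 table alone, no paired fit was made because its columns carry no replicate number.

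A limma p-value here rests on the spread between libraries within groups, pooled over the 16 libraries of a table, controls included. Transcripts near 1 RPKM rest on few reads, and changes of 2-fold or more depend on the pseudocount.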
